A study of Mus musculus with 31 samples.

Results

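Liver was compared with epididymal white adipose tissue (eWAT, the fat pad beside the epididymis) over all animals of the series. The comparison took all 15 liver libraries against all 16 eWAT libraries, which are the 31 libraries of the whole series, and no library was left out. It was made over the 12735 Ensembl gene identifiers (IDs) that both deposited tables hold, of 16929 IDs in either. A further 942 IDs were kept in the liver table only and 3252 in the eWAT table only, so the tables hold 13677 and 15987 IDs.

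The animals were wild-type male C57BL/6 mice of the F1 generation, aged 24 weeks, fed chow once weaned and then LFD for 18 weeks, starting at the age of 6 weeks. Each sample also carries a tag LFD, HFD or HFLFD, shortened here to LF, HF and HFLF and called its arm. The series title speaks of fathers, so the arm was taken to be that of the paternal line, which no label spells out. The liver libraries were 4 of LF, 5 of HF and 6 of HFLF, the eWAT libraries were 4, 6 and 6 in the same order, and all were made from total RNA. No label states that samples of 1 group came from separate animals, so p-values measure the spread between these samples. Tissue and any day of extraction or sequencing cannot be told apart.

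Hepatocytes, the main cells of the liver, make most plasma proteins and the apolipoproteins, turn ammonia into urea, break down amino acids, make bile acids and ketone bodies, and release glucose into the blood. White adipocytes store fatty acids as triacylglycerol inside a large lipid droplet, release them by lipolysis and secrete hormones such as leptin and adiponectin. Both tissues make fatty acids and triacylglycerol, and both hold blood vessels, macrophages and connective tissue.

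Deposited counts summed to 9225373 to 17268415 per liver library and 9278083 to 27230205 per eWAT library. Levels are given as normalised CPM, CPM being counts scaled to a common library total, after correction by trimmed means of M values (TMM). The TMM factors lay between 0.734 and 0.797 in liver and between 1.22 and 1.33 in eWAT, so the scaling itself raised liver levels relative to eWAT. A count of 3, taken as the detection floor, was worth 0.247 to 0.425 normalised CPM in liver and 0.0914 to 0.259 in eWAT, which covers counting error only. The 100 IDs with most counts took 40.8 to 42.3% of a liver library and 26.6 to 31.6% of an eWAT library. All log2 folds are liver over eWAT, so a positive value means higher in liver, and each comes with its standard error.

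Of the 12735 genes, 5438 (42.7%) were higher in liver and 5483 (43.1%) were lower in liver at an adjusted p under 0.05, by the quasi-likelihood test of edgeR with arm as a covariate and Benjamini-Hochberg adjustment. With library totals alone as the scale, the median log2 fold of all genes shifted from near 0 to -0.73, and the calls became 2476 higher and 9138 lower. Against a fold of 2, tested on the same fit, 2005 genes (15.7%) were higher in liver and 2511 (19.7%) were lower. All 15 liver libraries lay above all 16 eWAT libraries in 2921 genes, and all lay below in 3008. Among shared IDs, genes above the fold of 2 reached further on the liver side, with 279 estimated over 32-fold higher and 131 over 32-fold lower, and with 80 over 1000-fold higher and 2 over 1000-fold lower. IDs kept in 1 table could not be counted, the detection floor was lower in eWAT, and the scaling raised liver levels. These counts therefore do not compare all genes of the tissues. The log2 folds of all genes had a median of 0.00 and quartiles of -0.82 and 0.67. A 95% interval within 1.25-fold of equality was found for 1707 genes.

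A few genes took much of each library. Albumin (Alb), the main plasma protein, took 6.54 ± 1.01% of liver counts (SD, n = 15). It was followed in liver by apolipoprotein E (Apoe, 2.49%), transferrin (Trf, 1.76%), the mitochondrial cytochrome oxidase subunit mt-Co1 (1.12%) and apolipoprotein A-I (Apoa1, 1.10%). In eWAT the stearoyl-CoA desaturase Scd1, which makes monounsaturated fatty acids, took 3.48 ± 0.694% (SD, n = 16). Next in eWAT came carbonic anhydrase 3 (Car3, 1.64%), the fatty acid carrier Fabp4 (1.59%), the actin-severing protein gelsolin (Gsn, 1.28%) and mt-Co1 (0.983%). These shares are not corrected for gene length.

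Among the 100 IDs with most counts, 27 were shared by the tissues. Of these 27, 24 were higher in liver, Scd1 and Car3 were lower, and the fatty acyl-CoA synthetase Acsl1 was not called, while 13 of the 27 estimates lay within 2-fold. Scd1 ranged from 3211 to 24780 normalised CPM in liver, with a median of 12280, and from 18800 to 39250 in eWAT, with a median of 28350. Its ranges overlapped, and its log2 fold was -1.24 ± 0.21 (edgeR adjusted p 3.39e-06). Apoe, which carries lipids in plasma, lay between 26670 and 39160 in liver, with a median of 34100, and between 3764 and 6649 in eWAT, with a median of 4550. Its ranges were apart, with a log2 fold of 2.86 ± 0.11 (edgeR adjusted p 2.5e-22), so a gene among the leading ones of both tissues was still 7.25-fold higher in liver.

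The largest folds in favour of liver belonged to Mat1a, Pzp, Slc27a2, Slco1b2, Apob, Plg, Cps1, Mug1, Hrg and F2. Mat1a, the adult liver enzyme that makes S-adenosylmethionine, had 3258 to 7135 normalised CPM in liver (median 5138) and 0.0585 to 6.71 in eWAT (median 1.06). Every liver library exceeded every eWAT library, and the log2 fold was 11.86 ± 0.50 (edgeR adjusted p 2.26e-20), a fold of 3713. Apolipoprotein B (Apob), the scaffold of very low density lipoproteins, had 3954 to 5439 normalised CPM in liver (median 4986) and 0.215 to 6.20 in eWAT (median 1.26). Its log2 fold was 11.56 ± 0.43 (edgeR adjusted p 7.39e-22), again with no overlap. The bile acid uptake carrier Slco1b2 was listed at 0 in the lowest eWAT library and at 1.19 in the highest, while liver lay between 1025 and 1560. Pzp and Mug1 belong to the alpha-macroglobulin protease inhibitors, Plg is plasminogen, F2 is prothrombin and Hrg is a plasma glycoprotein that binds heparin.

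On the other side stood, among others, Cfd, Fabp4, Prkar2b, Sfrp5, Lpl, Cav1, Slc1a5, Npr3 and Cidec. Cfd encodes adipsin (complement factor D), which adipocytes secrete, and had 0.170 to 2.13 normalised CPM in liver (median 0.708) and 1613 to 9502 in eWAT (median 3849). No libraries overlapped, and with a log2 fold of -12.12 ± 0.38 (edgeR adjusted p 3.87e-24) it was the gene of largest absolute fold, 4461-fold lower in liver. Fabp4, which carries fatty acids inside adipocytes, had 7.35 to 40.1 normalised CPM in liver (median 10.6) and 10850 to 15720 in eWAT (median 12640), a log2 fold of -10.04 ± 0.24 (edgeR adjusted p 1.09e-27). Prkar2b, a regulatory subunit of protein kinase A, had 0.142 to 1.45 in liver (median 0.596) and 452 to 939 in eWAT (median 657). Its log2 fold was -9.84 ± 0.15 (edgeR adjusted p 7.27e-33), with the ranges far apart. Lipoprotein lipase (Lpl), which frees fatty acids from plasma triacylglycerol, was 487-fold lower in liver, at 9.30 to 23.9 normalised CPM against 4590 to 12030 in eWAT.

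**Figure D1:**
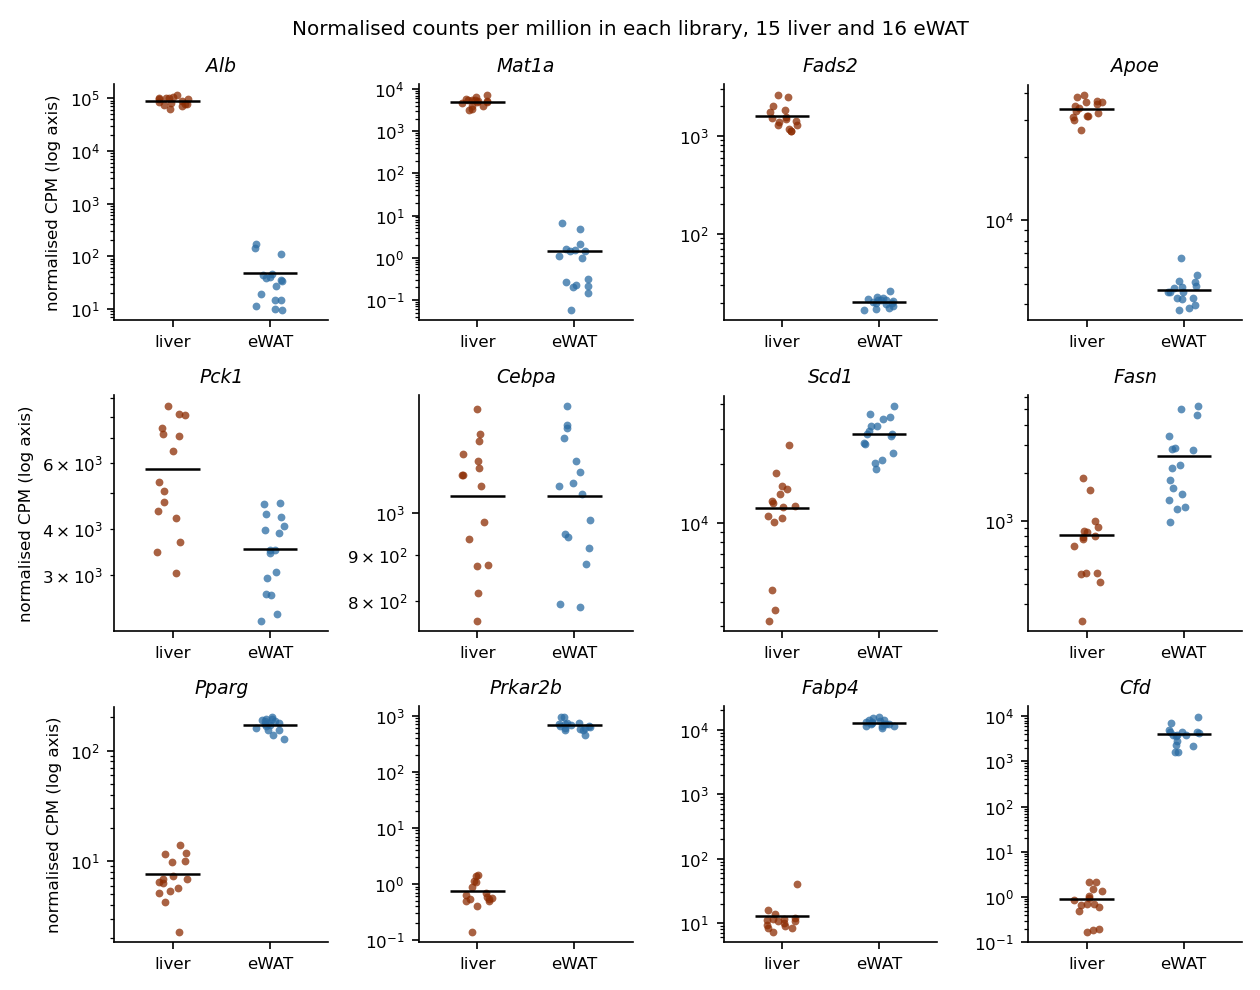
Normalised CPM of 12 genes on log axes, 1 point per library, liver to the left of eWAT and the mean as a line. Alb and Mat1a sit far higher in liver, Fabp4 and Cfd far lower, while the libraries of Cebpa span the same range in both and the Scd1 and Fasn clouds overlap.

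The genes with the tightest equality were Qrich1, Ube2q1, Psme2, Ip6k1 and Sirt2. Ip6k1, an inositol hexakisphosphate kinase, had 99.2 to 123 normalised CPM in liver (median 111) and 102 to 123 in eWAT (median 112), with a log2 fold of 0.00 ± 0.04 (edgeR adjusted p 0.927). Sirt2, an NAD-dependent deacetylase, had 83.5 to 95.5 in liver (median 89.1) and 82.0 to 99.5 in eWAT (median 89.2). Their ranges overlapped almost wholly, though equality holds only on the TMM scale, since library totals alone move every gene down by about the median shift given above.

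Proximal promoters of the genes apart by tissue were examined for short motifs, as a description. HNF4A and the PPAR factors are nuclear receptors that bind related repeats, and a core shared by their sites was searched as CAAAGNNCA on both strands. Promoters were taken from RefSeq on GRCm38.p6, 250 bases before and 50 bases after each gene start. They were counted for protein-coding genes on the 18 chromosomes where the table held at least 75% of such genes. Among genes over 32-fold higher in liver, 39 of 242 promoters held the core (16.1%), against 7.7% (136 of 1767) for all genes past the fold of 2 higher in liver. Among genes over 32-fold lower in liver 5.93% held it (7 of 118), among all genes past the fold of 2 lower in liver 5.04%, and among genes not past the fold of 2 4.8%. The share was 5.31% over all genes of both tables, 6.37% over all promoters of the table and 15.4% (74 of 482) over IDs kept in the liver table only. These shares cover the 80.0 to 85.9% of IDs in each set that matched a promoter.

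Promoters of 4 genes higher in liver that hold the core, of 1 lower gene that holds it and of Cfd, which does not, are shown for comparison, 5′ to 3′ on the gene's strand, with the core in capitals. They were chosen after their values were seen. The windows are Apob at chr12:7977427-7977726 (plus strand), Apoh at chr11:108395047-108395346 (plus strand), Slc10a1 at chr12:80968656-80968955 (minus strand), Serpinc1 at chr1:160978333-160978632 (plus strand), Pygb at chr2:150786546-150786845 (plus strand), Cfd at chr10:79890603-79890902 (plus strand). Slc10a1 has a further start in the table, without the core.
Apob: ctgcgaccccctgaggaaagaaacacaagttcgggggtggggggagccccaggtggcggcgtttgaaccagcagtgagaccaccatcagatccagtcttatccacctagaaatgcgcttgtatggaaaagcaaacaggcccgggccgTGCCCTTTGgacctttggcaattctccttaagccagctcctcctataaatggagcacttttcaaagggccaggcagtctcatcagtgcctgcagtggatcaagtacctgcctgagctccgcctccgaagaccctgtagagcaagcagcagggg
Apoh: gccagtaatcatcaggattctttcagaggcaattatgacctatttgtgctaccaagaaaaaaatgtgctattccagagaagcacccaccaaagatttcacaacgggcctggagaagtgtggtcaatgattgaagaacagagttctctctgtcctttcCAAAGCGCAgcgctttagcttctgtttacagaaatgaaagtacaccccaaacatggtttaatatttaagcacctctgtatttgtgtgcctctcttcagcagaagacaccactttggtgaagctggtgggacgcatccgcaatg
Slc10a1: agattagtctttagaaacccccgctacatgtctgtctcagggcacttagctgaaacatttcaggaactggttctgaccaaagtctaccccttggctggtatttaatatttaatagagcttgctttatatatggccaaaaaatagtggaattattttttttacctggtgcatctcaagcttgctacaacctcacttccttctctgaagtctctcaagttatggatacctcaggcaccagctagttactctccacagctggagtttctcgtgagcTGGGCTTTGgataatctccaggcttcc
Serpinc1: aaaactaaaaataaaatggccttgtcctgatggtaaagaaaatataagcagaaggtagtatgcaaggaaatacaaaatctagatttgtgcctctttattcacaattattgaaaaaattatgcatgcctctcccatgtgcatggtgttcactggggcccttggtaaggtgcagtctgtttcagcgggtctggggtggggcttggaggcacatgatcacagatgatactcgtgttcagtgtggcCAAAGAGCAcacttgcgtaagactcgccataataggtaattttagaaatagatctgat
Pygb: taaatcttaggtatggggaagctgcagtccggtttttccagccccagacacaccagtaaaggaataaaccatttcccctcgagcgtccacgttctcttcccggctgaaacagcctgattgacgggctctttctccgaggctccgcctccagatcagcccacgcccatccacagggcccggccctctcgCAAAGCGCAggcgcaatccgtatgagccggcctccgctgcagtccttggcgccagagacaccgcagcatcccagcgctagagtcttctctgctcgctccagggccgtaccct
Cfd: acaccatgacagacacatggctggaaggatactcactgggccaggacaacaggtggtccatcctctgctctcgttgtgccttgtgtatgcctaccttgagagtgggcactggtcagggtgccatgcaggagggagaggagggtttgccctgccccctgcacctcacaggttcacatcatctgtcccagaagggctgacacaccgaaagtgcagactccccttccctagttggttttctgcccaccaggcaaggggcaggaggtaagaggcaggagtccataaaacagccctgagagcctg

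The first base of the core stood 103 bases before the start in Apob, 93 in Apoh, 8 in Serpinc1 and 62 in Pygb, and at base 24 in Slc10a1, with the start as base 1. In Apob and Slc10a1 the core lies on the other strand. Apoh encodes beta-2-glycoprotein I, a plasma protein, at a log2 fold of 10.67, and Pygb the brain form of glycogen phosphorylase, at -5.32 ± 0.10. In the 300 bases shown, Pygb has 21 CpG, Apob 9, Apoh 5, Serpinc1 4, and Slc10a1 and Cfd 2 each.

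A C/EBP core (TTGCNNAA, both strands) stood in 19.8% of promoters over 32-fold higher in liver, in 15.3% of those over 32-fold lower and in 8.6% of all genes in both tables, against 10.9% of all promoters of the table. TATAAA on the gene strand stood in 9.92%, 7.63% and 4.26% of the same sets, against 8.39% of all promoters of the table. The median count of CpG was 6 in promoters over 32-fold higher in liver, 16.5 in those over 32-fold lower, 22 in genes not past the fold of 2 and 7 over all promoters of the table. A motif is a match of letters, not a bound site, and CpG content and the motifs were not separated here.

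**Figure D2:**
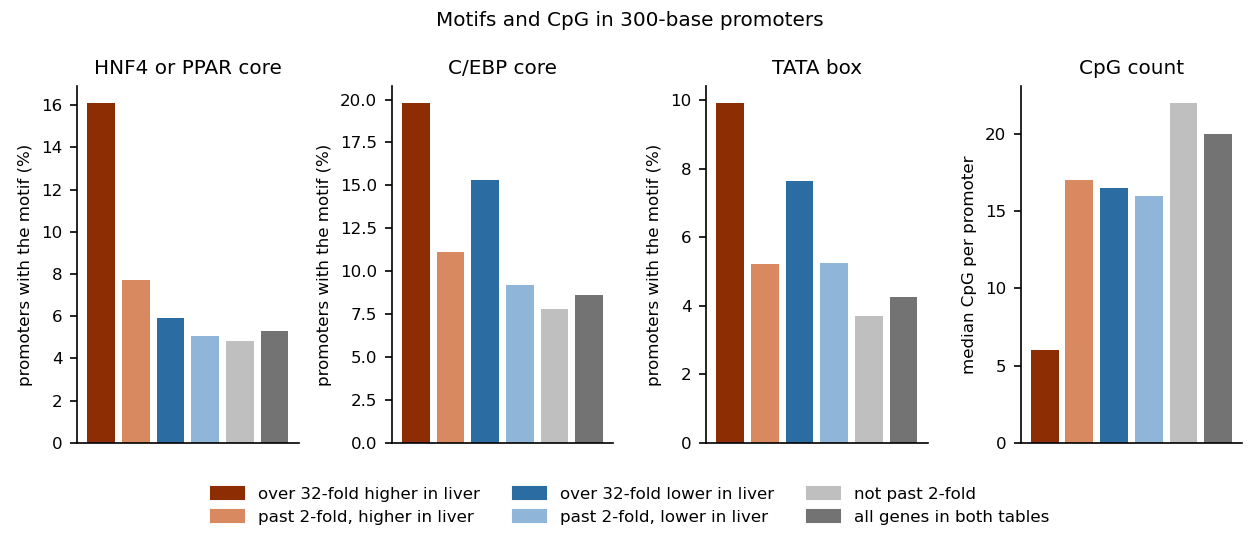
Share of 300-base promoters with each motif (first 3 panels, percent) and median CpG per promoter (last panel), by set of genes. The HNF4 or PPAR core stands in 16.1% of promoters over 32-fold higher in liver and in 5.93% of those over 32-fold lower.

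Markers checked the labelled tissues. All 25 hepatocyte markers in both tables were higher in liver, with a median log2 fold of 10.8 against 0.00 for all genes. These 25 took 18.8 ± 0.474% of counts in liver and 0.851 ± 0.178% in eWAT (SD, n = 15 and 16). The smallest of their folds belonged to genes with sizeable eWAT levels, the cytochrome P450 Cyp2e1 (log2 2.0 ± 0.19), haptoglobin (Hp, 2.28 ± 0.20) and Trf (2.92 ± 0.11). Cyp2e1 had 6336 to 11570 normalised CPM in liver (median 9360) and 1054 to 5336 in eWAT (median 2016). Of the 12 adipocyte markers shared by the tables, 11 were lower in liver, with a median log2 fold of -5.74. These 12 took 0.212 ± 0.0425% of counts in liver and 6.44 ± 0.622% in eWAT. The marker not called was the adiponectin receptor Adipor2, with 581 to 1422 normalised CPM in liver and 392 to 898 in eWAT. Under library totals alone all 12 were called lower. A further 10 adipocyte markers, among them Adipoq, Lep and Plin1, were in the eWAT table only, and Cyp3a11 was the 1 hepatocyte marker in the liver table only. In bulk tissue, fewer cells of a type and less RNA per cell cannot be told apart.

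The urea cycle, which turns ammonia into urea, was higher in liver in each of its 6 tested members, with a median log2 fold of 7.79. Cps1, the mitochondrial entry enzyme, had 3303 to 6577 normalised CPM in liver (median 4683) and 0.0305 to 7.71 in eWAT (median 1.24), with a log2 fold of 11.46 ± 0.51 (edgeR adjusted p 7.21e-20). The last enzyme, arginase 1 (Arg1), had a log2 fold of 9.62 ± 0.39, argininosuccinate synthase (Ass1) one of 8.15 ± 0.22 and argininosuccinate lyase (Asl) one of 5.54 ± 0.15. The ornithine carrier Slc25a15 had the smallest fold of the cycle, 5.10 ± 0.07, with 367 to 555 normalised CPM in liver and 10.2 to 15 in eWAT. Ornithine transcarbamylase (Otc, 479 ± 52.4 normalised CPM) and Nags, which makes the activator of Cps1 (103 ± 5.95), were in the liver table only.

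Amino acid breakdown was higher in liver in all 20 tested members, 18 of them past the fold of 2, with a median log2 fold of 9.24, and 6 more members were in the liver table only. Tyrosine aminotransferase (Tat) had a log2 fold of 11.08 ± 0.40 and the tyrosine-path enzyme Hgd one of 10.79 ± 0.29. The members of smallest fold were the tyrosine-path enzyme Gstz1 at 0.72 ± 0.05, which became -0.01 with library totals alone, and the serine dehydratase-like gene Sdsl at 0.82 ± 0.10. Branched-chain amino acid breakdown behaved otherwise, with 12 of 19 members higher, 3 lower and a median log2 fold of 0.30. That median became -0.44, with 4 higher and 12 lower, under library totals alone. By TMM, 42.7% of all genes were higher in liver and 43.1% lower. Of its enzymes, the transaminase Bcat2 was lower in liver at -1.55 ± 0.11 and the biotin-dependent carboxylase subunit Mccc1 at -0.90 ± 0.08. The dehydrogenase subunit Bckdha was higher at 1.17 ± 0.06, and Hsd17b10, a later dehydrogenase of the isoleucine path, at 1.44 ± 0.09. The transaminase Bcat1 was in the eWAT table only, at 13.8 ± 5.89 normalised CPM. As a share of counts, the branched-chain list took 0.238% in liver and 0.322% in eWAT.

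Plasma proteins made up the next group. Of 30 coagulation and complement genes 29 were higher in liver and 1, Cfd, was lower, with a median log2 fold of 8.36, and 7 more were in the liver table only. The fibrinogen chains Fga, Fgb and Fgg had log2 folds of 11.08 ± 0.61, 10.85 ± 0.62 and 10.79 ± 0.59. Kininogen (Kng1) stood at 10.98 ± 0.46 and antithrombin (Serpinc1) at 10.51 ± 0.38. Among the complement genes, complement component C3 stood at 3.34 ± 0.16, from 7016 to 13540 normalised CPM in liver and 451 to 1594 in eWAT. The complement protease C1s1 stood at 1.56 ± 0.07, and C2 at 0.41 ± 0.12, which became -0.33 with library totals alone. Near-identical copies within Serpina1, Saa, Mup, Cyp2d and Ugt2b genes and among haemoglobin genes may share reads, so values of single copies are uncertain. The strand setting of the counting is not given in the sources used here, so reads of overlapping genes cannot be told apart either.

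Apolipoproteins and lipoprotein handling had 16 of 19 members higher in liver and 3 lower, with a median log2 fold of 8.59, and 6 more in the liver table only. The triacylglycerol transfer protein Mttp, which loads lipid onto Apob, had 389 to 558 normalised CPM in liver and 2.56 to 6.69 in eWAT (log2 6.59 ± 0.10). Apoa1, the main protein of high density lipoproteins, stood at 10.65 ± 0.63, Apoa2 at 10.66 ± 0.55, Apoc3 at 9.87 ± 0.39 and the cholesterol-esterifying Lcat at 8.49 ± 0.15. The 3 lower members were the phospholipid transfer protein Pltp (-2.08 ± 0.26), the mRNA-editing enzyme Apobec1 (-0.69 ± 0.18) and the cholesterol exporter Abca1 (-0.20 ± 0.06). Pltp ranged from 19.2 to 273 in liver (median 46.0), with the highest library inside the eWAT range of 171 to 425 (median 268).

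Bile acid genes were higher in liver in all 11 tested members, with a median log2 fold of 8.38, and 8 others were in the liver table only. The sodium-coupled uptake carrier Slc10a1 stood at 10.64 ± 0.25, the canalicular exporter Abcc2 at 10.17 ± 0.16, and the synthesis enzymes Cyp8b1 and Cyp7b1 at 9.26 ± 0.26 and 8.38 ± 0.26. Cyp27a1, a sterol hydroxylase used in other tissues too, stood at 2.95 ± 0.08, with 550 to 962 normalised CPM in liver and 71.3 to 115 in eWAT. Cyp7a1, the rate-limiting enzyme of bile acid synthesis, was in the liver table only, between 13.6 and 895 normalised CPM with a median of 173.

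Glucose output and glycogen genes had 12 of 13 members higher in liver and none lower, with a median log2 fold of 4.74, and under library totals alone 11 were higher and 1 was lower. The gluconeogenic enzyme Fbp1 had 1382 to 1796 normalised CPM in liver and 0.0585 to 4.21 in eWAT (log2 10.46 ± 0.38). The glucagon receptor Gcgr stood at 6.62 ± 0.12 and the glucose-6-phosphate carrier Slc37a4 at 4.18 ± 0.09. The member not called was pyruvate carboxylase (Pcx, 0.13 ± 0.10, edgeR adjusted p 0.224), with 984 to 1422 normalised CPM in liver and 734 to 1681 in eWAT. Pck1, which makes phosphoenolpyruvate for glucose in liver and for glycerol in fat, had 3041 to 8538 in liver (median 5338) and 2261 to 4703 in eWAT (median 3506). The Pck1 ranges overlapped, and its log2 fold of 0.72 ± 0.15 (edgeR adjusted p 7.21e-05) became -0.01 with library totals alone. A further 3 members, among them glucose-6-phosphatase (G6pc), were in the liver table only. Glycolysis had 11 of 19 members higher and 8 lower, a median log2 fold of 0.45 that became -0.28 under library totals alone. Of all genes, 42.7% were higher and 43.1% lower.

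Of 26 lipogenesis genes 9 were higher in liver, 12 were lower and 5 were not called, shares near the 42.7% higher and 43.1% lower of all genes, with a median log2 fold of 0.10 that became -0.04 by upper quartile scaling and -0.64, with 5 higher and 15 lower, by library totals alone. Higher in liver were the desaturases of polyunsaturated fatty acids Fads2 (6.30 ± 0.13) and Fads1 (4.04 ± 0.13), the elongases Elovl5 (2.88 ± 0.12) and Elovl6 (2.48 ± 0.22), and the carbohydrate-response factor Mlxipl (2.40 ± 0.14). Fads2 had 1106 to 2598 normalised CPM in liver (median 1503) and 16.9 to 26.4 in eWAT (median 20.5). Lower in liver were the lipid-droplet protein Pnpla3 (-6.06 ± 0.21), the pentose phosphate enzymes G6pdx (-5.00 ± 0.17) and Pgd (-2.43 ± 0.10), which supply NADPH, and the acyltransferases Mogat1 (-4.98 ± 0.24) and Dgat1 (-2.60 ± 0.10). Fatty acid synthase (Fasn) ranged from 237 to 1854 normalised CPM in liver (median 795) and from 984 to 5235 in eWAT (median 2193). Its ranges overlapped, with a log2 fold of -1.60 ± 0.27 (edgeR adjusted p 3.05e-06). ATP citrate lyase (Acly, 0.24 ± 0.20) and the lipogenic nuclear protein Thrsp (0.00 ± 0.26, edgeR adjusted p 0.995) were not called.

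Lipolysis and lipid droplet genes had 12 of 18 members lower in liver, 4 higher and a median log2 fold of -1.57. A further 5 members, among them Plin1, were in the eWAT table only and 3 in the liver table only. The triacylglycerol lipase Pnpla2 had 118 to 227 normalised CPM in liver (median 179) and 1923 to 3421 in eWAT (median 2569), a log2 fold of -3.94 ± 0.10. Hormone-sensitive lipase (Lipe) stood at -5.74 ± 0.11, the droplet coat protein Plin4 at -7.19 ± 0.38 and the droplet-fusing protein Cidec at -8.62 ± 0.22. Against the direction of most of the list, the droplet proteins Plin5 (2.64 ± 0.17), Plin2 (0.85 ± 0.20) and Hsd17b11 (1.97 ± 0.07) were higher in liver, as was the glycerol channel Aqp9 (7.38 ± 0.18). Plin3 and G0s2, an inhibitor of Pnpla2, were not called.

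**Figure D3:**
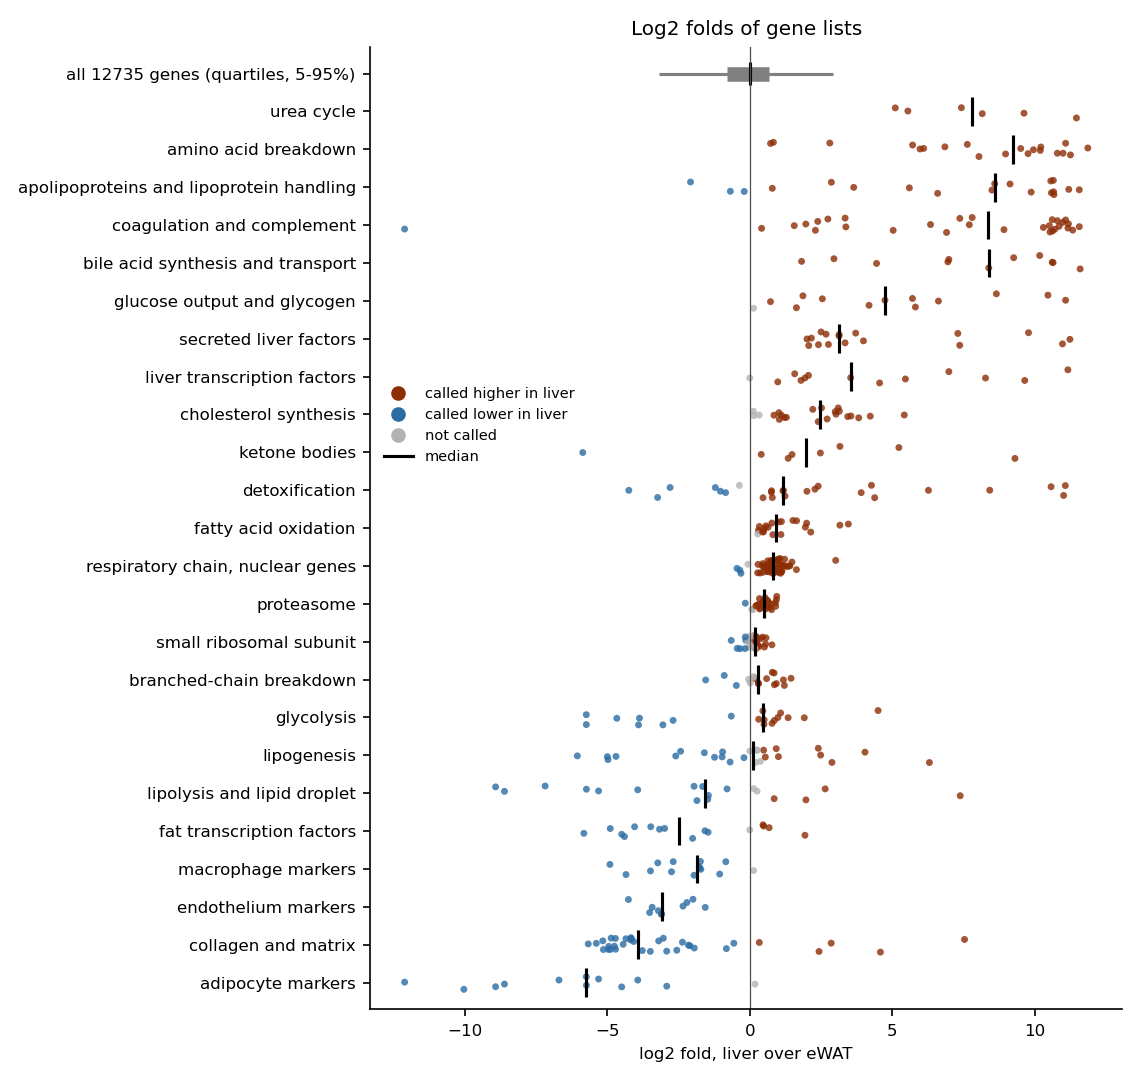
Log2 fold of liver over eWAT of each tested member of 24 gene lists, with medians as black bars, above them the spread of all 12735 genes. Urea cycle, amino acid breakdown, bile acid and coagulation genes lie far to the right, collagen and adipocyte genes to the left, and lipogenesis and glycolysis genes on both sides of 0.

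Fatty acid oxidation was higher in liver in 19 of 20 members, with a smaller median log2 fold of 0.91, and under library totals alone 10 members were higher and 6 lower. The thiolase Acaa2 stood at 3.45 ± 0.07, with 1220 to 1684 normalised CPM in liver and 117 to 169 in eWAT, and the entry enzyme Cpt1a at 3.16 ± 0.08. Acsl1 was the member not called (0.27 ± 0.16, edgeR adjusted p 0.102). For ketone bodies, 7 of 8 members were higher in liver and 1 was lower. Bdh1, which makes 3-hydroxybutyrate, had 287 to 511 normalised CPM in liver (median 415) and 0.133 to 1.76 in eWAT (median 0.650), a log2 fold of 9.30 ± 0.20. The lower member was Oxct1, which is needed to use ketone bodies, with 3.67 to 6.40 in liver (median 5.25) and 231 to 365 in eWAT (median 291), a log2 fold of -5.87 ± 0.09 (edgeR adjusted p 1.8e-32). The ranges of both genes were apart, in opposite directions.

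Peroxisome genes were higher in liver in 16 of 20 members and lower in 4, where 42.7% of all genes were higher and 43.1% lower. Their median log2 fold was 1.64, which became 0.91 under library totals alone. Urate oxidase (Uox) led at 11.29 ± 0.46, the phytanic acid enzyme Phyh stood at 4.12 ± 0.07, and catalase (Cat) at 2.21 ± 0.07. The fatty acyl-CoA carrier Abcd2 was lower at -4.41 ± 0.23, with 1.27 to 35.5 normalised CPM in liver and 354 to 590 in eWAT. Cholesterol synthesis had 19 of 22 members higher and none lower, with a median log2 fold of 2.46, and 16 higher and 3 lower with a median of 1.71 under library totals alone. The sterol reductase Tm7sf2 stood at 4.22 ± 0.14, with 97.6 to 247 normalised CPM in liver and 4.86 to 11.2 in eWAT, and the sterol carrier Stard4 at 3.82 ± 0.12. Mvk, Pmvk and Hmgcs1 of the same path were not called. Detoxification genes were higher in 18 of 25, lower in 6, with a median log2 fold of 1.17, which became 0.45 with 14 higher and 7 lower under library totals alone, and 18 more were in the liver table only. The cytochrome P450 Cyp1b1 was lower in liver at -4.25 ± 0.23, whereas Cyp2f2 was higher at 8.42 ± 0.36, and the carboxylesterases differed, with Ces3a at 11.07 ± 0.41 and Ces1d not called (-0.37 ± 0.20, edgeR adjusted p 0.0914).

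Mitochondrial genes moved by smaller steps. Of 58 nuclear genes of the respiratory chain 54 were higher in liver, 3 were lower and 13 were past the fold of 2, with a median log2 fold of 0.82 that became 0.08, with 26 higher and 14 lower, under library totals alone. Their summed share of counts was 1.06 ± 0.0567% in liver and 1.02 ± 0.105% in eWAT. The largest fold belonged to Atp5g1, a gene for subunit c of ATP synthase, with 134 to 200 normalised CPM in liver and 16.8 to 26.2 in eWAT (log2 3.01 ± 0.06). The 8 tested genes of mitochondrial DNA were all higher in liver, with a median of 0.92 that became 0.18, with 4 still called, under library totals alone. Of the citric acid cycle 11 of 19 genes were higher and 3 lower, with a median of 0.65 that became -0.09, with 6 higher and 9 lower, under library totals alone. Beside these lists, 42.7% of all genes were higher and 43.1% lower by TMM. Citrate synthase (Cs, -0.95 ± 0.08) and the isocitrate dehydrogenase subunit Idh3a (-1.73 ± 0.07) were lower in liver, and the succinyl-CoA ligase subunit Suclg2 (2.53 ± 0.08) was higher. Of 6 thermogenic genes 3 were higher and 3 lower, with a median of 0.89 that became 0.15 under library totals alone. A further 5 thermogenic genes were in the eWAT table only and 1 in the liver table only. Ppargc1a, a coactivator of mitochondrial genes, stood at 2.23 ± 0.19, and the beta-3 adrenergic receptor Adrb3 at -5.31 ± 0.17.

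For housekeeping lists the direction depended on the scale. Small ribosomal subunit genes had 18 of 32 members higher in liver and 6 lower by TMM, 7 higher and 11 lower by upper quartile, and 0 higher and 31 lower by library totals alone, with none past the fold of 2. Proteasome genes had 21 of 24 higher and 1 lower by TMM, and 4 higher and 16 lower by library totals alone. Of 25 genes often used as references for quantitative PCR, 12 were higher in liver, 6 were lower and 7 were not called by TMM, against 5 higher and 18 lower by library totals alone. By TMM, 42.7% of all genes were higher and 43.1% lower. Actb, a cytoskeletal actin, had 606 to 1805 normalised CPM in liver (median 837) and 1574 to 2534 in eWAT (median 2046), a log2 fold of -1.24 ± 0.11. Gapdh, a glycolytic enzyme, had 630 to 971 in liver (median 761) and 244 to 426 in eWAT (median 304), a log2 fold of 1.34 ± 0.07. These 2 references therefore differed in opposite directions under TMM. Pgk1 (1.91 ± 0.05) and Ipo8 (1.08 ± 0.05) were higher in liver and Tubb5 (-1.13 ± 0.11) and Hprt (-0.88 ± 0.05) were lower. Those not called included Ppia, Rpl32, Tfrc, Rplp0 and Rps29.

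Matrix genes were lower in liver in 29 of 34 members and higher in 5, with a median log2 fold of -3.93. Sparc, a collagen-binding protein, had 50.7 to 96.1 normalised CPM in liver (median 77.4) and 2131 to 6068 in eWAT (median 4041), a log2 fold of -5.67 ± 0.15. The fibrillar collagens Col1a1 and Col3a1 stood at -4.18 ± 0.26 and -4.17 ± 0.18, and the basement membrane collagen Col4a1 at -4.76 ± 0.13. Higher in liver were vitronectin (Vtn, 7.53 ± 0.10) and fibronectin (Fn1, 2.43 ± 0.11), both also plasma proteins, the basement membrane collagen Col18a1 (2.85 ± 0.08), the fibrillar collagen Col27a1 (4.58 ± 0.16) and Col14a1 (0.33). Of its counts, liver gave 0.763 ± 0.0813% to the list and eWAT 1.87 ± 0.273%.

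Secreted factors listed for liver were higher there in all 17 tested members, with a median log2 fold of 3.13, and 8 more were in the liver table only. The fetuin Ahsg stood at 10.97 ± 0.56, the retinol carrier Rbp4 at 3.13 ± 0.08 and the growth factor Igf1 at 2.50 ± 0.10. The acute-phase gene Saa1 spread widely in liver, from 25.8 to 4632 normalised CPM with a median of 273, and Saa2, in the liver table only, from 12.8 to 4603 with a median of 111. Of 11 secreted fat factors 7 were lower in liver, 3 were higher and 1 was not called, with a median of -1.19 that became -1.92 under library totals alone. A further 8, among them Adipoq, Lep and Retn, were in the eWAT table only and so are not in these counts. The Wnt antagonist Sfrp5 stood at -9.34 ± 0.46. Chemerin (Rarres2) was higher at 0.70 ± 0.08, which became -0.04 under library totals alone.

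Most of the listed transcription factors were higher in the tissue of their list, and Cebpa was on both lists. Of 13 liver factors 12 were higher in liver, with a median log2 fold of 3.54, and 10 more, among them Foxa1, Foxa2 and Foxa3, were in the liver table only. Hnf4a, a master regulator of hepatocyte genes, had 745 to 1339 normalised CPM in liver (median 962) and 0.0585 to 1.35 in eWAT (median 0.326), a log2 fold of 11.16 ± 0.24 (edgeR adjusted p 1.7e-28). The membrane-bound factor Creb3l3 stood at 9.65 ± 0.18, Prox1 at 8.27 ± 0.24 and the bile acid receptor Nr1h4 at 6.98 ± 0.15. Cebpa, a factor of both hepatocytes and adipocytes, had 762 to 1301 normalised CPM in liver (median 1102) and 788 to 1312 in eWAT (median 1060). It was not called under TMM (log2 -0.01 ± 0.08, edgeR adjusted p 0.953). Of 16 fat factors 11 were lower in liver, 4 were higher and 1, again Cebpa, was not called, with a median of -2.50, against 1 higher and 12 lower under library totals alone. A further 8 fat factors were in the eWAT table only. Zfp423, a factor of adipocyte commitment, stood at -5.83 ± 0.13, and Twist1 and Klf4 at -4.40 ± 0.14 and -4.90 ± 0.16. Pparg, the adipocyte master regulator, had 2.30 to 13.9 normalised CPM in liver (median 6.91) and 126 to 201 in eWAT (median 175), a log2 fold of -4.50 ± 0.16. Srebf1 (0.48 ± 0.14) was higher in liver but at -0.26 under library totals alone.

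HOX genes mark position along the body axis. Only Hoxb5 (-3.59 ± 0.20), Hoxa3 (-3.13 ± 0.13) and Hoxb4 (-1.84 ± 0.09) of the 39 were in both tables, all lower in liver, while 24 were in the eWAT table only and none in the liver table only. Hoxc8 led these at 127 ± 22.4 normalised CPM in eWAT. The 3 shared genes took 0.000402 ± 7.73e-05% of liver counts and 0.00363 ± 0.000451% of eWAT counts (SD, n = 15 and 16).

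Of 26 hormone receptors 12 were higher in liver and 13 lower, near the shares of all genes (42.7% and 43.1%), with a median log2 fold of 0.03, which became -0.11 by upper quartile and -0.71 by library totals alone. The natriuretic peptide clearance receptor Npr3 stood at -8.79 ± 0.20. The alpha-1B adrenergic receptor Adra1b (5.49 ± 0.10) and the epidermal growth factor receptor Egfr (4.13 ± 0.15) were higher in liver. The insulin receptor Insr was higher at 0.91 ± 0.06, with 147 to 214 normalised CPM in liver and 72.3 to 119 in eWAT, and the related Igf1r was lower at -2.60 ± 0.08, with 3.40 to 5.96 in liver and 22.7 to 37.6 in eWAT. Clock genes were higher in 10 of 18, lower in 2, with a median of 0.50 that became -0.23, with 6 higher and 8 lower, under library totals alone. The repressor Nfil3 stood at 2.90 ± 0.16 and the repressor Bhlhe41 at -1.99 ± 0.22. No label gives the hour of dissection. Of 13 genes of microRNA processing and let-7 control 7 were higher in liver and 4 lower, with a median of 0.14 that became -0.60, with 1 higher and 10 lower, under library totals alone. Drosha, the nuclear enzyme that cuts microRNA precursors, was lower at -1.41 ± 0.05, with 14 to 23.0 normalised CPM in liver and 40.6 to 53.0 in eWAT. Dicer1, the cytoplasmic enzyme of the next step, was higher at 0.67 ± 0.04 by TMM and at -0.06 under library totals alone, and the let-7 precursor nuclease Dis3l2 was higher at 1.26 ± 0.07.

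Many steps of metabolism have more than 1 form, and a list paired a first form, taken as that of liver, with a second. The values did not bear out every such choice. Scd1, Dgat2, Pfkl and Irs2, all listed first, were lower in liver, and Bcat1, also listed first, was in the eWAT table only. The list held 39 such pairs, of which 24 had both genes in both tables. The ratio of the first form to the second was taken within each library, per exon base from the GENCODE M21 annotation, after 0.5 normalised CPM was added to each gene. That ratio was higher in every liver library than in every eWAT library in 21 of the 24 pairs, and ranges overlapped in 3. The pairs were chosen with earlier results of these data known, so the direction was partly set by the choice. For single genes, all liver libraries lay above all eWAT libraries in 2921 of 12735 and below in 3008. No such share was taken for ratios of other gene pairs. In 14 pairs the first gene was called higher in liver and the second lower, in 2 both were higher, in 3 both were lower, and in 1 the order was turned round, while in the others at least 1 gene was not called. The glucose carriers showed it plainly, with Slc2a2 at 369 to 690 normalised CPM in liver (median 591) and 0.534 to 2.41 in eWAT (median 1.49). The insulin-responsive Slc2a4 had 0.544 to 10.9 in liver (median 1.75) and 108 to 279 in eWAT (median 183). The log2 ratio of the carriers ran from 5.17 to 8.25 in liver and from -8.63 to -6.43 in eWAT.

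Of the sugar enzymes, glycogen synthases stood at 5.71 ± 0.22 (Gys2) and -4.13 ± 0.12 (Gys1), and glycogen phosphorylases at 1.86 ± 0.08 (Pygl) and -5.32 ± 0.10 (Pygb). The kinases that set fructose-2,6-bisphosphate stood at 0.65 ± 0.11 (Pfkfb1), which became -0.08 under library totals alone, and -4.67 ± 0.30 (Pfkfb3). Both phosphofructokinases were lower in liver, Pfkl at -0.65 ± 0.06 and Pfkp at -3.88 ± 0.11. In lactate dehydrogenase, Ldha stood at 1.08 ± 0.10 and Ldhb at -3.94 ± 0.10. Of the pairs split between tables, Pklr was in the liver table only, and its counterpart Pkm (-3.91 ± 0.09) was lower in liver.

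In lipid handling, the fatty acid carriers had the widest ratio, with Fabp1 at 11.13 ± 0.51 and Fabp4 at -10.04, and a log2 ratio of 9.56 to 12.2 in liver and -11.6 to -7.44 in eWAT. The transport proteins Slc27a5 and Slc27a1 stood at 10.61 ± 0.27 and -5.25 ± 0.14, and the nuclear receptors Ppara and Pparg at 5.46 ± 0.17 and -4.50 ± 0.16. Both stearoyl-CoA desaturases were lower in liver, and so were both diacylglycerol acyltransferases, Dgat2 at -0.70 ± 0.09. In amino acid metabolism, the methionine adenosyltransferases stood at 11.86 (Mat1a) and -1.0 ± 0.07 (Mat2a). The aspartate-glutamate carriers were both higher, Slc25a13 at 7.42 ± 0.18 and Slc25a12 at 1.26 ± 0.06.

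The 3 pairs with overlapping ratios were the acetyl-CoA carboxylases, the insulin receptor substrates and the INSIG proteins, which hold back sterol regulation. Acacb was not called (0.37 ± 0.19, edgeR adjusted p 0.0775), and Acaca was lower at -0.98 ± 0.18. Irs2 was lower at -1.70 ± 0.13 and Irs1 higher at 0.34 ± 0.16 (edgeR adjusted p 0.0455), the reverse of the listed order, but Irs1 lost its call in 16 of 31 fits that left out 1 library and stood at -0.39 under library totals alone. Insig2 and Insig1 were both higher, at 1.04 ± 0.17 and 1.10 ± 0.16.

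**Figure D4:**
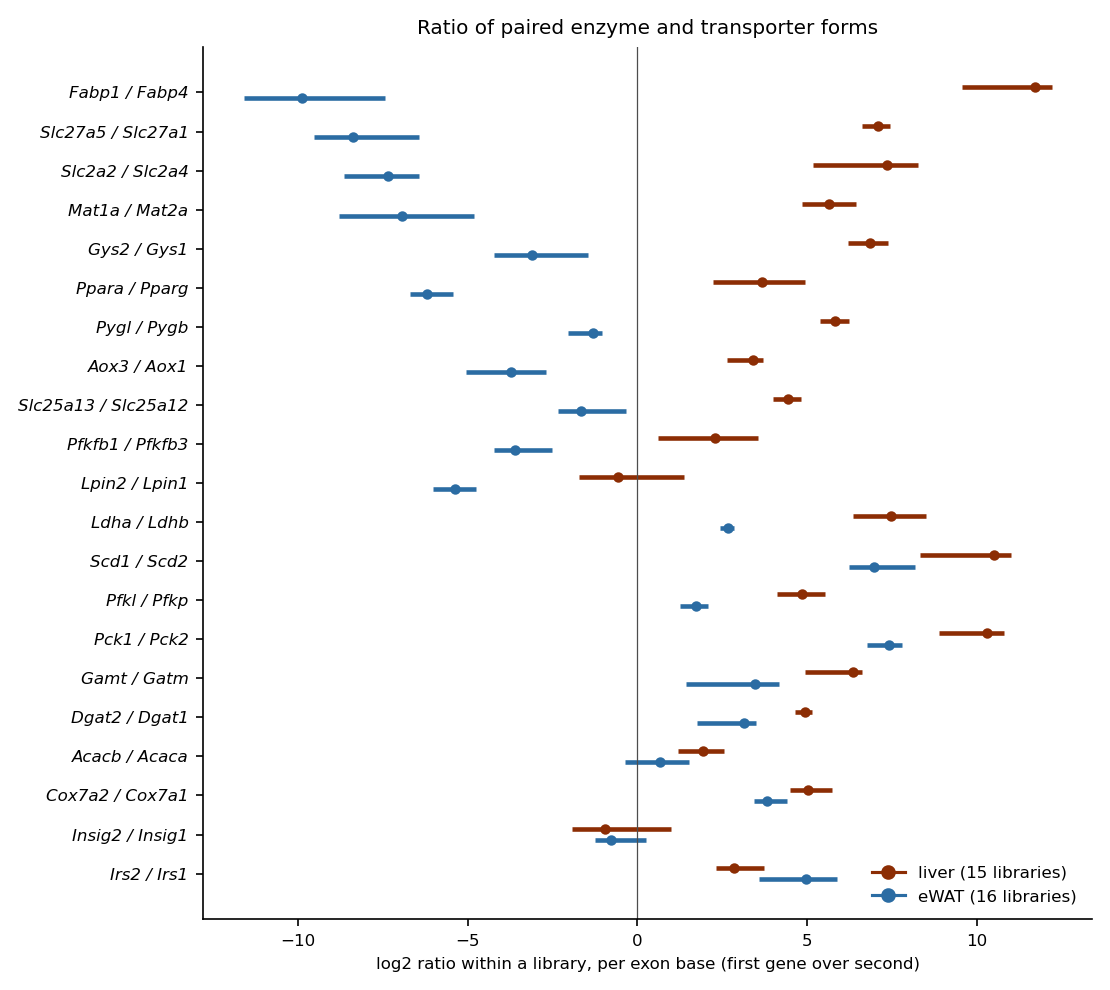
Range and median of the log2 ratio of paired forms within each library, per exon base, for 21 pairs with both genes in both tables, liver above eWAT in each row. Ranges are apart in 18 of them, and the Fabp1 to Fabp4 ratio is the widest, from 9.56 to 12.2 in liver and from -11.6 to -7.44 in eWAT.

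IDs kept in 1 table have no value in the other, so no fold or test can be given. Each kept ID exceeded 0.5 CPM in at least 4 libraries of its table. The 942 liver IDs held 549 protein-coding genes and took 3.86 to 4.46% of counts in a liver library. The 3252 eWAT IDs held 2171 protein-coding genes and took 3.25 to 4.34% in an eWAT library. More than 3 times as many IDs were thus kept in eWAT only, but most were low, with a median level of 3.79 normalised CPM for liver IDs and 1.17 for eWAT IDs. By the TMM factors, 1 plain CPM was a higher normalised CPM in liver than in eWAT. The part of this in the counts and medians was not tested. Of the liver IDs 332 averaged 10 or more and 153 averaged 100 or more, and of the eWAT IDs 301 and 44 did. Of the IDs that averaged 1000 or more, 161 of 162 in liver and 63 of 68 in eWAT were in both tables.

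The liver IDs of highest mean level were Saa2, Proc (protein C, an anticoagulant, 922 ± 66.0 normalised CPM, SD, n = 15), 1300017J02Rik, Gulo (a vitamin C synthesis enzyme, 839 ± 93.9), C4bp (a complement inhibitor), Ces3b, Uroc1 (histidine breakdown), Pklr (pyruvate kinase, 804 ± 218), Sult2a8 and Cyp3a11. Cyp3a11, a drug-metabolising enzyme, ranged from 139 to 1616. The eWAT IDs of highest mean level were Adipoq (2984 ± 503, SD, n = 16), the lipid-droplet coat protein Plin1 (2224 ± 336), Nnat (1837 ± 439), the amine oxidase Aoc3 (1695 ± 228), leptin (Lep, 1419 ± 562), Sncg, resistin (Retn, 746 ± 175), Trarg1, Timp4 and Apol6. Leptin spread most of the hormones named, from 339 to 2348 with a median of 1447, whereas Adipoq stayed between 2155 and 3992.

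Markers of other cell types also differed. All 10 markers of vessel endothelium were lower in liver, with a median log2 fold of -3.10, for example the junction proteins Cldn5 (-4.26 ± 0.17) and Cdh5 (-3.52 ± 0.10). Their summed level ran from 185 to 314 normalised CPM in liver and from 1330 to 2060 in eWAT, and none was at 0 in any library. Of 14 macrophage markers 13 were lower in liver, with a median of -1.87 and a summed level of 238 to 591 in liver and 867 to 2540 in eWAT. Cx3cr1 was the marker not called. Fat progenitor markers had 7 of 8 lower and 1 higher, Dpp4 (2.50 ± 0.14). Mesothelium markers had 5 of 7 lower, while the keratins Krt8 (5.94 ± 0.32) and Krt18 (6.10 ± 0.31), which hepatocytes also express, were higher. A further 4 fat progenitor and 5 mesothelium markers were in the eWAT table only.

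Markers of cells special to liver were mixed, beside 42.7% of all genes higher and 43.1% lower by TMM. Of 8 Kupffer cell markers 4 were higher and 3 lower, with Cd5l (4.25 ± 0.37) and Vsig4 (3.53 ± 0.28) higher and Folr2 (-2.77 ± 0.17) and Cd163 (-2.56 ± 0.20) lower, and with a median of 0.54 that became -0.20 under library totals alone. Clec4f, the defining Kupffer marker, was in the liver table only, at 106 ± 37.7 normalised CPM. Liver endothelium markers had 5 of 7 higher and 2 lower, or 4 and 3 under library totals alone, with the scavenger receptor Stab2 at 4.37 ± 0.14 and Lyve1 at -1.86 ± 0.20. Stellate cell markers had 6 of 9 higher and 2 lower, or 5 and 4 with the median moving to 0.60, against 1.33, under library totals alone, with Reln at 4.88 ± 0.39 and Rgs5, also a pericyte gene, at -2.67 ± 0.18. Of 6 bile duct markers 4 were higher and 2 lower, but the highest, Ambp, is a hepatocyte gene. All 7 B cell markers were lower in liver, of 3 T cell markers 1 was (2 under library totals alone), and of 5 red cell genes 4 were, while the haem synthesis enzyme Alas2 was higher (2.47). The T cell list had 9 more members in the eWAT table only. The 7 B cell markers of both tables summed to 9.43 to 193 normalised CPM in liver and 189 to 3260 in eWAT, while 4 more were in the eWAT table only, and no member had ranges apart. The 1 testis marker in both tables was not called by TMM and was lower under library totals alone, and the 1 muscle marker, Mylpf, was lower at -0.42. The shared testis marker, Gapdhs, reached 5.3 in liver and 10.6 in eWAT, and the 6 testis markers kept in the eWAT table summed to up to 104 there. None of the 11 epididymis markers was in either table.

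Transcripts of hepatocytes stood at a trace level in eWAT that differed from library to library. For 103 genes with at least 100 normalised CPM in liver and a log2 fold above 9, a set chosen by these values and given without a test, the median level in an eWAT library ran from 0.00953 to 0.233% of the liver mean. It ran from 0.0393 to 0.167% in LF, from 0.0102 to 0.233% in HF and from 0.00953 to 0.0561% in HFLF. The highest libraries were HF 5 (0.233%), LF 5 (0.167%) and LF 3 (0.138%). Albumin itself had 63130 to 113900 normalised CPM in liver (median 87460) and 9.63 to 171 in eWAT (median 34.6), a log2 fold of 11.10 ± 0.49. Without these 3 eWAT libraries the median log2 fold of the 103 genes was 11.5, against 10.7 with them, and that of the hepatocyte markers was 11.6 against 10.8. These 3 libraries were chosen for their high levels of liver transcripts, so a rise of both medians was fixed by that choice. In the other direction, 23 genes had at least 100 normalised CPM in eWAT and a log2 fold under -7, again a set chosen by its values. Their median level in a liver library was 0.233 to 0.575% of the eWAT mean. The cutoffs bound these percentages and differ between the sets, so the directions cannot be compared. Where the trace came from was not tested.

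**Figure D5:**
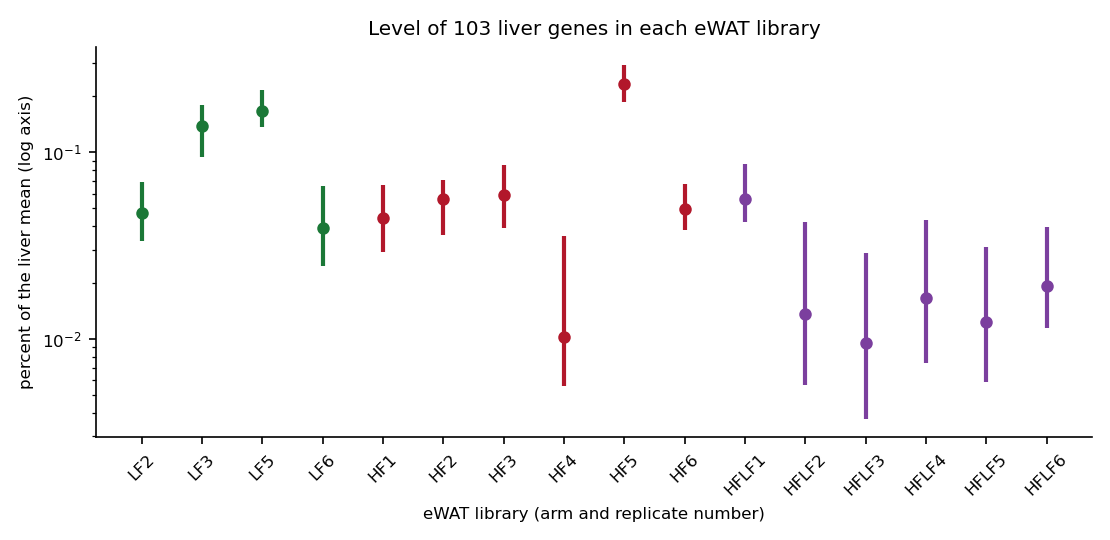
Level of 103 liver genes in each of the 16 eWAT libraries, as a percent of their mean in liver on a log axis, with the median as a point and the quartiles as a bar, coloured by arm. HF 5, LF 5 and LF 3 are highest at 0.233, 0.167 and 0.138%, and 5 of the 6 HFLF libraries lie at or below 0.0191%.

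The difference between tissues was next compared between the arms. The interaction of tissue and arm was called for 0 genes by edgeR, with a smallest adjusted p of 0.638 and 677 genes at an unadjusted p under 0.05, where 637 would be expected with no difference. DESeq2 called 25, of which 12 were among the 103 liver genes just described, and 74 of those 103 had an unadjusted edgeR p under 0.05. Among them Mat1a had log2 folds of 11.02 in LF, 11.20 in HF and 13.40 in HFLF, and the part of the trace levels in these calls was not tested. Each arm fitted alone called 8326 genes in LF, 9984 in HF and 9686 in HFLF, and 7893 were called in the same direction in all 3 arms while 1 differed in direction. Of the 4516 genes past the fold of 2, 4392 were over 2-fold in the same direction in all 3 arms. For these 4516 genes the 3 estimates of a gene spanned a median of 0.31 log2 units, and a 95th percentile of 1.17. Cfd gave -13.58 in LF, -11.69 in HF and -11.78 in HFLF, whereas Prkar2b gave -9.85, -10.11 and -9.64.

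The residual standard deviation between libraries of 1 tissue and arm had a median of 0.23 log2 units in liver and 0.20 in eWAT, and genes were more variable in liver in 7876 cases and in eWAT in 4859. For genes past the fold of 2 it was larger on the side where they were low, at 0.33 in liver and 0.25 in eWAT for genes lower in liver. For genes past the fold of 2 that were higher in liver it was 0.24 in liver and 0.25 in eWAT.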

How the data were processed

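RNA was measured in 15 liver and 16 eWAT libraries. The authors deposited a table of read counts per Ensembl ID for each tissue. The submitters' processing notes name STAR, without a version, and the GRCm38.p6 build. Neither the counting tool nor the annotation is named there, and the file names speak of a CPM filter whose minimum is not stated. Deposited RPKM tables were not used, since the gene lengths they imply varied between libraries for the same gene. No per-sample column was left unmapped (0).

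From the deposited counts, the 12735 IDs in both tables were joined and fitted with edgeR 4.0.16 in R 4.3.3. The fit used TMM factors, tissue and arm as terms, robust quasi-likelihood F tests and Benjamini-Hochberg adjustment at 0.05, with 27 residual degrees of freedom. The common biological coefficient of variation was 0.18. A fold of 2 was tested with glmTreat, and the interaction of tissue and arm in a second fit. Standard errors are the absolute log2 fold over the square root of F, and the scripts were tested on simulated data. Levels (normalised CPM) are counts scaled to the effective library size over shared IDs, also for IDs in 1 table. Symbols came from GENCODE M21, and 17 of 16929 IDs had none. Tables were joined with Python 3.11.15, pandas 2.3.3 and numpy 2.4.6, and limma 3.58.1 and DESeq2 1.42.0 served alternatives.

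Depth was 9225373 to 17268415 counts in liver and 9278083 to 27230205 in eWAT, and no pair of libraries of 1 group came within sampling noise, their mean squared difference being 12.8 to 99.9 times the Poisson variance over 67 pairs. The compared genes and the 47 lists were chosen with earlier results of these data known. Named genes are the 10 highest and 10 lowest folds with at least 10 normalised CPM in the higher tissue, the 5 with most counts per tissue, up to 4 of the largest and 2 of the smallest absolute folds of each list, all paired forms and reference genes, the 10 highest IDs per single table with list members, and the 5 tightest at equality. Other members named were chosen after their values were seen. Alternatives were other scalings, filters, tools, a replicate block, and libraries left out. Some named genes and 1 promoter motif are not reported here.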

Additional observations from a re-analysis of the deposited data

Results flagged for a closer look

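Of 147 groups of 4 to 6 libraries, 20 held a library set apart from the rest of its group by Dixon's criterion, where about 7 are expected by chance at 1 in 20. None of the causes was tested.

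Liver transcripts were set apart in eWAT HF 5, where the 103 liver genes stood at a median of 0.233% of the liver mean, against 0.0102 to 0.0589% in the other HF libraries. In that library Alb had 171 normalised CPM (9.74 to 45 in the others), Apob 6.2 (0.215 to 2.1), Mat1a 6.71 (0.143 to 1.58), Hnf4a 1.35 (0.0717 to 0.481) and Cps1 7.71 (0.358 to 1.83). In eWAT HFLF 1 the same genes stood at 0.0561% (0.00953 to 0.0191% in the others), with Alb at 43 (9.63 to 18.9), Mat1a at 1.45 (0.0585 to 0.321) and Cps1 at 1.58 (0.0305 to 0.464).

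Summed markers were set apart in 6 cases, all in normalised CPM. Adipocyte markers were 3560 in liver HF 3 (2280 to 2490 in the others) and 68800 in eWAT HF 1 (52900 to 58800). Over all liver libraries the sum had a median of 2820, and Car3 alone averaged 1784, against 12.7 for Fabp4 and 15.2 for Lpl. The liver sum thus rests mostly on genes that are not low in liver. B cell markers were 193 in liver HF 6 (15 to 24.4) and 3390 in eWAT LF 2 (196 to 283). In liver LF 1, mesothelium markers were 1640 (286 to 515) and fat progenitor markers 194 (229 to 233). Krt8 and Krt18, which hepatocytes also express, gave most of the mesothelium sum there.

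Single genes were set apart in liver too. Fabp4 had 40 normalised CPM in liver LF 1 (10.1 to 11.5 in the others) and 16 in liver HF 2 (8.4 to 10.6). In liver HFLF 6, Fasn had 1850 (415 to 810) and Fads2 2600 (1110 to 1540).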

How the results depend on the processing

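Without 1 library at a time, 10863 to 10953 genes were called, 4476 to 4524 were past the fold of 2 and 0 to 0 had an interaction. Calls higher and lower in liver were 5534 and 5397 by RLE factors, 4707 and 6200 by upper quartile, 2476 and 9138 by library totals alone (1145 and 4506 past the fold of 2), 5233 and 5643 by filterByExpr, and 4463 and 4507 of 10371 genes with at least 1 CPM in every library. DESeq2 gave 5544 and 5413, with an interaction in 25 genes, and no adjusted p for F2, Apoa2 and Cyp2d9. Every gene past the fold of 2 kept its sign in each of these fits that held it (4516 in most, 4510 by filterByExpr, 3152 at 1 CPM). Of 14272 values of the 312 named genes under 46 alternatives, 18 reversed, 85 lost and 76 gained a call. Only a gene called in the main fit could count as reversed. A gene not called there whose sign changed was counted as unchanged, even where it gained a call. Adipor2, for example, was not called by TMM, but all 12 shared adipocyte markers were called lower under library totals alone. The 18 reversals were all under library totals alone, with log2 folds of -0.0107 for Pck1, -0.013 for Gstz1, -0.0405 for Rarres2, -0.0614 for Dicer1, -0.0833 for Pfkfb1, -0.151 for mt-Nd5, -0.19 for Rps18, -0.26 for Srebf1, -0.264 for Cox6a1, -0.279 for Pfkm, -0.282 for Eif2a, -0.329 for C2, -0.394 for Irs1, -0.432 for Slc2a1, -0.438 for Hadhb, -0.525 for Nono, -0.542 for B2m and -0.561 for Tbp. That scale moves the median of all genes to -0.731. With a mean of at least 1 normalised CPM 811 liver-only and 1828 eWAT-only IDs remained, and with at least 10, 332 and 301. Replicate numbers were not used as pairs in the main fit, since no label says that a number is 1 animal. Deviations of same-numbered libraries had a correlation over 0.1 in 3 of 14 pairs (range -0.0809 to 0.144), and 4 were highest with their own number. These values cannot show whether a number is 1 animal, since deviations of different tissues need not correlate within an animal. With the replicate block, limma voom called 5438 and 5477 genes (consensus correlation -0.00112), and edgeR on the libraries of shared numbers called 5335 and 5408, with no interaction. Without the 3 eWAT libraries highest in liver transcripts, an alternative chosen after seeing the data, 5401 and 5408 were called; without those high in B cell markers 5379 and 5405, and without those high in testis markers 5399 and 5452. A count of 3, worth up to 0.425 normalised CPM in liver and 0.259 in eWAT, limits the folds of genes near 0 in 1 tissue.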
